A study of Dorcoceras hygrometricum with 14 samples.

Results

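CHH regions upstream of genes in the resurrection plant Boea hygrometrica are stretches of genomic DNA in which the submitters found different methylation levels in 2 bisulfite libraries. They were chosen as the rows of the CHH region tables of the positive and the negative strand that name a gene in the column for the 2 kb before it. The rule took 560 of 3348 CHH regions (16.7%), with 291 of 1738 on the positive strand and 269 of 1610 on the negative strand. Measured values played no part in the choice among CHH regions, but the tables hold only regions that the authors list as differentially methylated.

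The study asked how DNA methylation and gene expression relate to the capacity of this plant to regenerate shoots from leaf pieces. Methylation was measured in leaves of untreated sterile plants grown in jars, in 1 bisulfite library of expanding young leaves from 1-month-old plants (44.49 Gb of clean bases) and 1 of mature leaves from 6-month-old plants (41.19 Gb). Each of these libraries was a mix of 5 biological replicates with 30 leaf discs each, so the region lists carry no error between plants. Expression was measured in 12 RNA libraries from young leaf segments with sides of 0.5 cm, taken from 1-month-old plants and held for 0, 5, 10 or 15 days on medium with the auxin 2,4-D and the cytokinin 6-BA (0.1 mg/L each), with 3 biological replicates a day of about 30 leaf discs each. The CHH tables compare 2 columns headed BhB-4 and BhS-4, names that no label or header ties to a leaf age or to a sample. Their levels were therefore not used here, and each region is described by the authors' own word for its direction, Up or Down in a column headed BhB/S. Up is read here, from that header, as more methylation in BhB than in BhS, and no region is assigned to young or mature leaves.

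In plants, cytosine is methylated in the contexts CG, CHG and CHH, where H is A, C or T. CHH sites are not symmetric between the strands, so a methylated site on 1 strand has no mirrored partner on the other, and the mark has to be set again after each replication. From work in Arabidopsis, short RNAs made through RNA polymerase IV and a Dicer enzyme guide ARGONAUTE4 to transcripts of polymerase V, where the methyltransferase DRM2 acts, while CMT2 methylates CHH sites in heterochromatin. CHH methylation before genes is often found over transposon remnants close to expressed genes.

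Most upstream regions were marked Up, which is read here from the header as more methylation in BhB than in BhS and was not checked against levels. In the authors' deposited table this held for 483 of 560 regions (86.3%), and 77 were marked Down. On the positive strand 256 of 291 regions were marked Up (88.0%, exact binomial 95% interval 83.7% to 91.5%) and on the negative strand 227 of 269 (84.4%, 79.5% to 88.5%). These intervals cover counting error only, treat neighbouring regions as independent, and overlap between the strands. The excess was much the same at other places, since the share was 83.7% over all CHH regions, 85.9% for the 573 regions in or downstream of genes and 82.5% for the 2215 regions away from genes. With 1 library behind each side of the comparison, none of these shares was tested.

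The regions were short stretches with few sites. Their median length was 109 bases (quartiles 76 to 166, range 50 to 498) and their median number of CHH sites 13 (quartiles 11 to 18, range 10 to 66), and together they covered 74145 bases. Regions marked Up had a median length of 117 bases and those marked Down 84, with a median of 13 sites in both. On the positive strand the median length was 119 bases, and on the negative strand it was 102. Regions in or downstream of genes had a median of 104 bases and those away from genes 93. Over all CHH regions of the tables no row had fewer than 10 sites or a length under 50 bases, which shows the limits of the lists. The p-value of a region is the authors' own and serves here only to describe, rank and filter regions. Upstream it had a median of 0.000259 and ran from 1.13e-13 to 0.0496 in the authors' deposited table.

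The upstream regions were unevenly spread over the scaffolds of the region lists. All 560 lay on 18 scaffolds, which also held every other CHH region listed. CG and CHG regions were listed on all 18 as well, so the limit to 18 is not particular to upstream regions. The genes of the expression table lay on 5817 scaffolds. On the 9 scaffolds with 83 to 186 such genes, upstream regions were 22.2% to 37.8% of all CHH regions, and on the 9 scaffolds with 2 to 41 genes they were 4.02% to 9.73%. The gene-rich scaffolds held 436 upstream regions, of which 88.8% were marked Up, and the gene-poor scaffolds held 124, of which 77.4% were. On gene-poor scaffolds the share away from genes was 80.6% (1497 regions), and on gene-rich scaffolds it was 86.4% (718 regions). The upstream share exceeded the share away from genes on 7 of 9 gene-rich and 4 of 9 gene-poor scaffolds. KV015569.1 had the lowest upstream share, with 8 of 14 regions marked Up (57.1%), and KQ990066.1 the highest, with 26 of 28 (92.9%). This split at 50 genes was chosen after the data had been seen.

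Upstream regions lay along the whole window, and fewest lay next to the gene. A distance could be given for 446 of the 612 pairs of region and gene, and its median was 1162.5 bases from the nearest gene edge (quartiles 684 to 1587). Within 500 bases of the gene there were 63 pairs (14.1%), from 500 to 1000 bases 128 (28.7%), from 1000 to 1500 bases 124 (27.8%) and from 1500 to 2000 bases 131 (29.4%). The share marked Up was 85.7%, 88.3%, 87.9% and 88.5% in these bins. Within 500 bases it was 26 of 28 pairs on the positive strand (92.9%) and 28 of 35 on the negative strand (80.0%), the widest gap between strands of any bin and 1 that rests on few pairs. Regions on the strand that the gene itself is read from were marked Up in 86.7% of 233 pairs, against 89.2% of 213 pairs on the opposite strand. That strand was inferred from the side of the gene on which its regions lie.

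**Figure D1:**
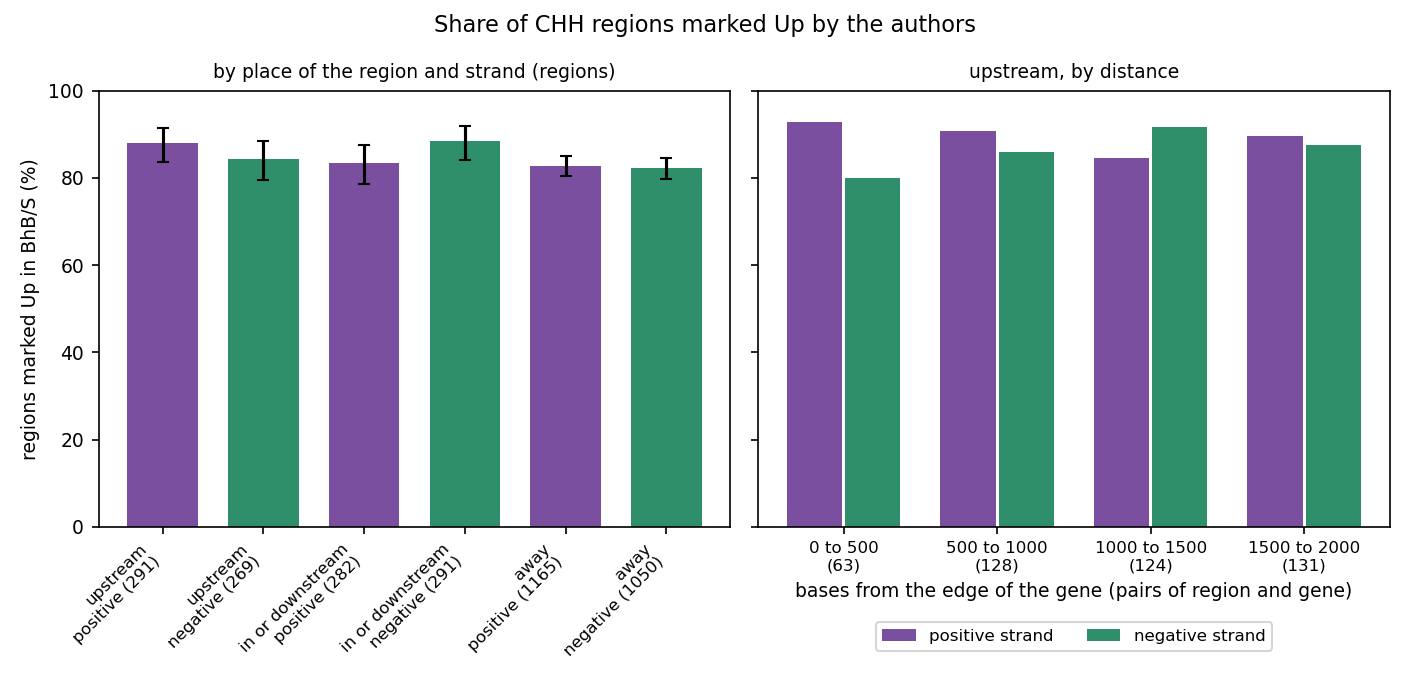
Share of CHH regions marked Up in the column BhB/S (percent), by place of the region and strand on the left, with exact binomial 95% intervals, and for upstream regions by distance from the gene edge in bases on the right, without intervals; numbers in brackets count regions on the left and pairs of region and gene, both strands, on the right. All bars lie between 80.0% and 92.9%, and the upstream intervals of the strands, 83.7% to 91.5% and 79.5% to 88.5%, overlap.

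**Figure D2:**
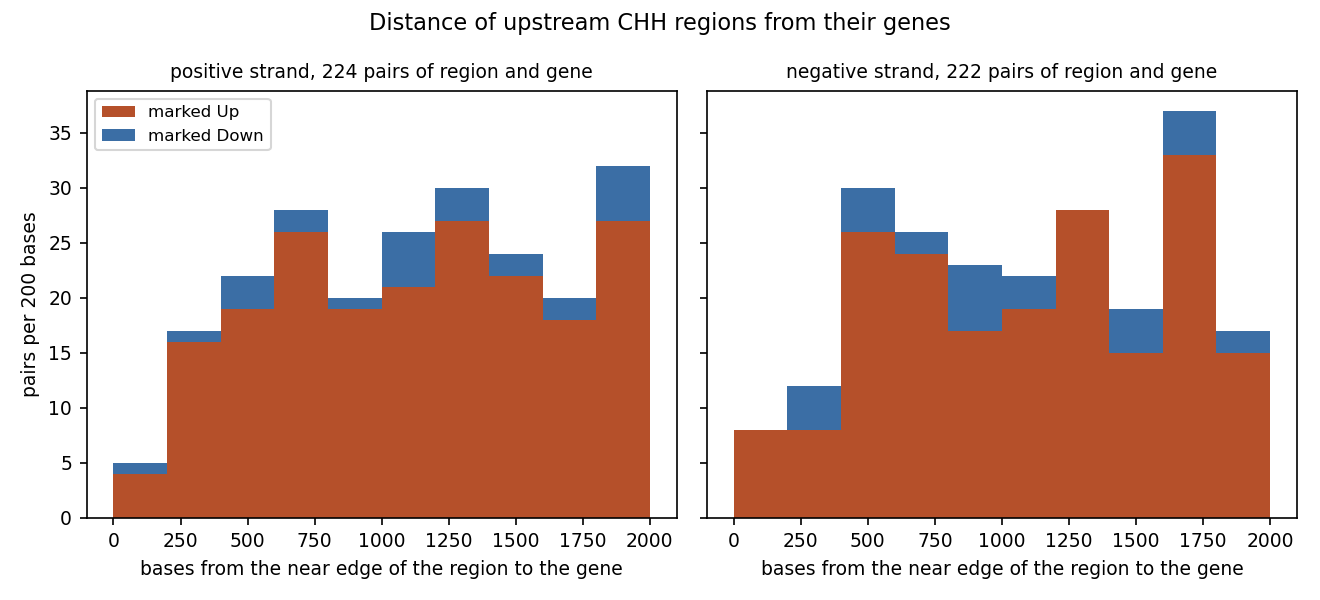
Distance in bases from the near edge of an upstream CHH region to its gene, for 224 pairs of region and gene on the positive strand (left) and 222 on the negative strand (right), as counts per 200 bases split by the authors' mark. On both strands the bins nearest to the gene are the emptiest, and regions marked Up make most of every bin.

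The strands could be compared directly where regions of both covered the same bases. Of the upstream regions, 115 (20.5%) overlapped a CHH region of the other strand by at least 1 base, against 334 of 2788 other CHH regions (11.98%), and 234 (41.8%) had one within 500 bases. Regions with such an overlap were marked Up in 102 of 115 cases (88.7%), and those without in 381 of 445 (85.6%). Where the region on the other strand was an upstream region too, the overlaps made 61 pairs of upstream regions, with a median of 78 shared bases (quartiles 51 to 113). In 52 pairs both strands were marked Up, in 5 both were marked Down, and in 4 the marks were opposite. The strands of a pair share the libraries, the locus and the selection for a difference, so these counts are a description only.

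The 4 opposed pairs were all marked Down on the positive strand and Up on the negative strand, and they are named here after their marks were seen. Before the microtubule-associated protein 70-2-like gene F511_02460 the strands shared 6 bases, at KV010635.1:251122-251205 on the positive and KV010635.1:250987-251127 on the negative strand. The widest overlap of the 4, 114 bases, lay before F511_11165, which has no named protein (KV008068.1:888191-888331 and KV008068.1:888122-888304). The others lay before F511_04116, with 18 shared bases, and before F511_07159 and F511_07160, with 90. The 5 pairs marked Down on both strands lay before 4 genes. F511_00272 is described below, F511_01683 is a Gag protease polyprotein of transposon origin, and F511_15785 and F511_00172 had no row in the expression table used here.

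Few upstream CHH regions coincided with regions of the other contexts. Of the 560, 41 (7.32%) overlapped a CG region and 38 (6.79%) a CHG region, against 4.59% and 4.52% of other CHH regions. Of those that overlapped a CG region 30 of 41 were marked Up (73.2%), and of those that overlapped a CHG region 34 of 38 (89.5%), against 86.3% of all upstream regions. The overlapped regions were 1.56% of the CG list and 1.74% of the CHG list. The CHG table uses the same column names, and in 33 of 38 overlaps both contexts carried the same mark, 29 Up and 4 Down, while in the other 5 the CHH region was marked Up and the CHG region Down. Over the whole CHG list of the authors' deposited table, 63.0% of regions were marked Up. The CG table names the samples, so its levels, as fractions of 1, can be given by leaf age. The 35 CG regions that overlapped an upstream CHH region had median levels of 0.736 in mature and 0.798 in young leaves, and 16 were higher in mature and 19 in young leaves. The other 2212 CG regions had medians of 0.858 and 0.830, and 53.2% were higher in mature leaves. Each level comes from 1 library, so these were not tested. By gene, 75 of 359 genes with an upstream CHH region (20.9%) also had an upstream CG region, which was 28.2% of the 266 genes with one, and 69 (19.2%) an upstream CHG region, 46.9% of 147. All 3 contexts had a region before 23 genes.

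The 560 regions were linked to 359 genes, of which 257 are in the expression table and 191 have a named protein. Regions on both strands occurred at 106 genes, on the positive strand only at 132 and on the negative strand only at 121. All regions of a gene were marked Up at 285 genes, Down at 38, and mixed at 36. Regions also ran together along the scaffold, since 124 of 366 groups of regions at most 500 bases apart held 2 or more. Of these groups 82 had both strands and 96 were wholly marked Up. Regions before genes with a named protein were marked Up in 87.5% of 313 cases, those before genes of the table without one in 89.6% of 106, and those before genes with no row in the expression table used here in 80.9% of 141.

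Some genes stood behind long runs of differential CHH methylation. F511_00834 (KV009364.1:434238-435617), an anthocyanidin 5,3-O-glucosyltransferase-like gene of pigment synthesis, had 7 regions from 1011 to 1851 bases before it, 4 on the positive and 3 on the negative strand, and all 7 were marked Up. The strongest by the authors' p-value was KV009364.1:432390-432551 on the negative strand, with 29 sites and a p-value of 3.31e-09 in the authors' deposited table. F511_00673 (KV005017.1:539582-543839), which has no named protein, had 8 regions, of which 7 were marked Up and 1 on the negative strand, 1736 bases from the gene, was marked Down. F511_07080 (KQ991163.1:179505-181556), a U-box domain-containing protein 19-like gene of the ubiquitin ligase family, had 5 regions 714 to 1246 bases before it, all marked Up.

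Longer runs also preceded genes for a Nup205-like nuclear pore protein (F511_02554, 5 of 6 regions marked Up) and a calreticulin-like chaperone of the endoplasmic reticulum (F511_00209, 4 of 5). Before F511_00209 the region marked Down, on the negative strand at 546 bases, was the nearest to the gene. Before F511_02554 it lay on the negative strand at 459 bases, between an Up region at 287 bases and others farther out. The NEDD8-activating enzyme E1 regulatory subunit gene (F511_01533), whose product starts the NEDD8 conjugation that activates cullin ubiquitin ligases, had 5 regions and the blue light receptor gene phototropin-2 (F511_00181) had 4, all marked Up.

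**Figure D3:**
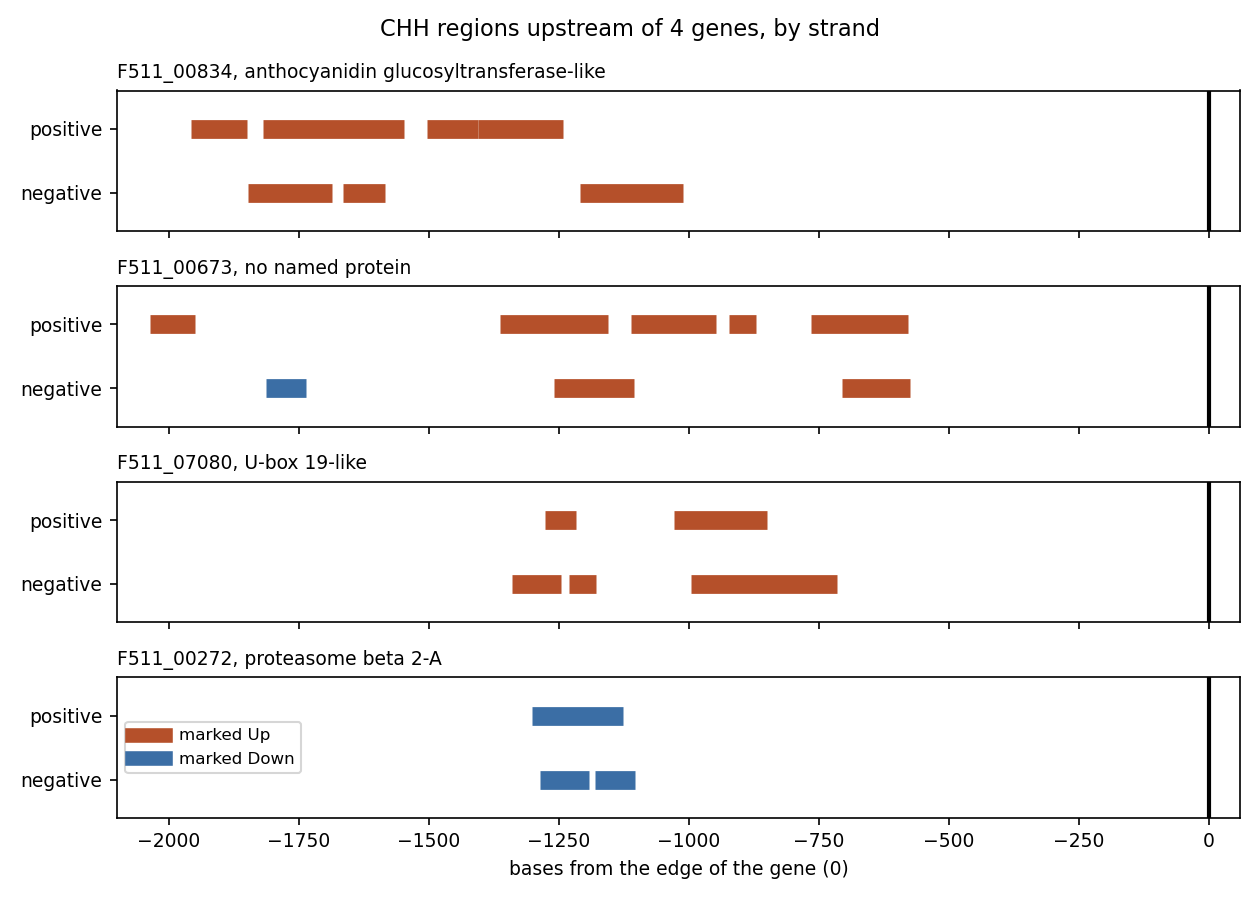
CHH regions before 4 genes, drawn to scale at their distance in bases from the gene edge (0, black line), in 1 lane for each strand and coloured by the authors' mark. The 7 regions of F511_00834 and the 5 of F511_07080 are all marked Up, F511_00673 has 1 region marked Down among 8, and the 3 regions of F511_00272 are all marked Down.

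The regions with the smallest authors' p-values lay before genes of varied function, and this way of naming regions was chosen after the data had been seen. In the authors' deposited table the smallest p of all, 1.13e-13, belonged to KV010635.1:880024-880384 on the negative strand, a region of 361 bases and 61 sites before the Nup205-like gene F511_02554. The negative strand region KQ997936.1:267061-267539, 459 bases before the chloroplast metallopeptidase gene EGY3 (F511_00173), had the most sites of all upstream regions (66) and an authors' p-value of 3.93e-11. KV010635.1:605577-605786 on the negative strand ended 77 bases before F511_02514, a gene for a sulfur-rich protein precursor, with an authors' p-value of 3.12e-10. On the positive strand, KV018098.1:240127-240429 (32 sites, authors' p-value 1.52e-09) lay 526 bases before F511_01533. Next in the authors' deposited table came KV009364.1:907157-907377 before the organellar RNase P 1-like gene F511_00910, whose product trims transfer RNA precursors (authors' p-value 8.29e-09), and KQ991163.1:967328-967638 before the mitochondrial frataxin gene F511_07135, of iron-sulfur cluster assembly (authors' p-value 8.32e-09). All 6 were marked Up.

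The genes of these regions were not called, with the exception of EGY3 at day 15, described below. F511_01533 had 8.1 to 12.45 FPKM in the 12 RNA libraries, F511_00910 had 28.09 to 43.16 and F511_07135 had 32.44 to 63.16, while F511_02514 reached at most 1.23 FPKM and was not tested. F511_02554 had 5.39, 4.94 and 8.7 FPKM at day 0, against 8.77, 9.71 and 14.3 at day 15, groups that did not overlap, and its log2 fold change of 0.71 ± 0.25 (SE) did not pass (limma adjusted p = 0.0764). FPKM, the fit and the call are explained below.

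Regions marked Down were the minority on both strands. The smallest authors' p on the positive strand at a named protein was 1.23e-07 in the authors' deposited table, for KQ990066.1:555215-555343, before the benzyl alcohol O-benzoyltransferase-like gene F511_00068. The other regions of that gene, nearer to it at 390 and 717 bases, were both marked Up. The 3 regions before F511_00272, a proteasome subunit beta type-2-A gene, were all marked Down, with p of 6.79e-07 on the positive strand and 1.62e-06 and 1.08e-05 on the negative strand in the authors' deposited table. They lay 1103 to 1193 bases from the gene, and each also overlapped a CG and a CHG region. Expression of F511_00272 lay between 9.57 and 13.97 FPKM in all 12 RNA libraries. A positive strand region marked Down lay 1836 bases before the anthocyanidin 3-O-glucoside xylosyltransferase-like gene F511_03019, another gene of pigment decoration, which had 37.56 to 123.49 FPKM. KQ987269.1:984277-984368 on the negative strand lay between F511_03142, an ERF023-like transcription factor gene with at most 1.5 FPKM, and F511_03141, for a UV-stimulated scaffold protein A of transcription-coupled repair, with 5.25 to 12.06 FPKM. None of these 5 genes was called on any day.

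Expression was the readout that the choice of regions did not use. Values are FPKM, mapped fragments scaled by transcript length and by library size, and the depth behind them is unknown because no counts were used here. The fit was limma's moderated test on log2(FPKM + 1) over 12 libraries, and a gene was called at an adjusted p under 0.05 (Benjamini-Hochberg over 17288 genes) and a log2 fold change of at least 1 in size. Fold changes are on that scale, which understates the change of low genes. Of the 257 linked genes in the table, 211 (82.1%) reached 1 FPKM in at least 3 libraries and were tested, against 86.0% of the other genes on the same scaffolds and 71.7% of all genes. Their median at day 0 was 12.95 FPKM over the 257 genes, against 13.9 for the other genes on these scaffolds and 6.04 for all. The leaf explants changed as a whole tissue. The summed FPKM of 38 markers of photosynthetic tissue ran from 86914 to 122786 at day 0 and from 16316 to 85161 on later days, with 10, 3 and 19 called lower and none higher at days 5, 10 and 15. The sum of 9 dividing cell markers ran from 165 to 318 at day 0 and from 194 to 335 later, with none called. Their median log2 fold change was -0.67, -0.53 and -0.16 at days 5, 10 and 15, so the sum does not show the typical marker. In such bulk samples fewer cells of a type and less RNA per cell cannot be told apart, and the part of cell makeup in the results below was not tested. Within each day replicate 3 stood apart, so counts are also given for replicates 1 and 2 only, an alternative chosen after seeing the data.

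Most genes with an upstream CHH region were not called on any day. At day 5 against day 0, 5 of 211 were called higher (2.37%, against 3.13% of all genes tested) and 11 lower (5.21%, against 3.48%). At day 10, 5 were called higher (2.37%, against 2.24%) and 12 lower (5.69%, against 2.26%). At day 15, 13 were called higher (6.16%, against 4.63%) and 15 lower (7.11%, against 4.38%). The difference from the background was not tested, and the 3 comparisons share the day 0 libraries. Single libraries moved the counts called lower by over 1.5 times. At day 5 they were 4 and 6 without day 0 replicates 1 and 2, and 5 and 2 without day 5 replicates 1 and 2. In that order, the shares of linked genes called in either direction were 3.79%, 4.74%, 3.79% and 2.37%. Over all genes they were 2.60%, 3.12%, 2.61% and 2.41%. At day 10 the counts lower were 3 without day 0 replicate 1 or 2, and 4 and 6 without day 10 replicates 2 and 3. There the shares in either direction were 2.37%, 3.32%, 2.84% and 4.74%, against 1.19%, 1.74%, 1.74% and 3.96% of all genes. At day 15 the counts lower were 7 without day 0 replicate 1 and 9 without day 15 replicate 3. Those fits called 8.06% and 9.95% of linked genes, against 4.36% and 5.91% of all genes. With replicates 1 and 2 only, the counts higher and lower were 10 and 15, 9 and 9, and 18 and 15. In that fit the shares called in either direction were 11.85%, 8.53% and 15.64% of linked genes, against 11.76%, 8.63% and 12.68% of all genes, so those at days 5 and 10 lay at the background. The median log2 fold change of the linked genes was 0.07, 0.17 and 0.14 on the 3 days, against 0.14, 0.15 and 0.21 over all genes.

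No linked gene was called between day 5 and day 10 or between day 10 and day 15. limma called 0 of all 17288 genes there as well, and at an unadjusted p under 0.05 there were 9 and 10 linked genes, against 539 and 561 of all. With replicates 1 and 2 only, linked genes again gave 0 calls, against 1 and 22 over all genes.

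Most called genes had regions marked Up, as did most linked genes. Of all genes tested, 3.13%, 2.24% and 4.63% were called higher and 3.48%, 2.26% and 4.38% lower at days 5, 10 and 15. Among 179 tested genes with regions marked Up only, 4 were called higher and 11 lower at day 5, 4 and 11 at day 10, and 9 and 13 at day 15. Those were 2.23%, 2.23% and 5.03% higher and 6.15%, 6.15% and 7.26% lower. Among 15 with regions marked Down only, the counts were 1 and 0 (6.67% and 0%), 1 and 1 (6.67% each), and 2 and 2 (13.3% each). Of 17 mixed genes, 2 were called higher at day 15 (11.8%) and none on other days or lower. By strand, 74 genes with positive strand regions only had 1 higher and 7 lower at day 5, 2 and 7 at day 10, and 4 and 8 at day 15. The 71 with negative strand regions only had 3 and 1, 3 and 2, and 5 and 4, and the 66 with both had 1 and 3, 0 and 3, and 4 and 3. In that order of strands, the shares higher were 1.35%, 2.70% and 5.41%, then 4.23%, 4.23% and 7.04%, then 1.52%, 0% and 6.06%. The shares lower were 9.46%, 9.46% and 10.8%, then 1.41%, 2.82% and 5.63%, then 4.55% on each day. These groups are small, the strand contrast has no test, and neighbouring genes can share a region.

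In all, 31 linked genes were called against day 0 on at least 1 day, 14 higher and 17 lower, and no gene changed direction. The share of all genes called on at least 1 day was not computed, so this count has no background beside it. Of their 61 calls, 23 held in all 18 alternatives tried, including each library left out. Most genes below were named in part because their libraries did not overlap between the days compared, so a lack of overlap there is a description only.

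Genes that rose included several enzymes. F511_01570 (KV018098.1:546870-547694), a putative carboxylesterase 12-like gene of the hydrolase family that cleaves esters, started from 4.87, 7.35 and 5.23 FPKM at day 0. The values were 43.38, 52.87 and 22.25 FPKM on day 5, 37.04, 37.09 and 33.64 on day 10, and 61.35, 84.17 and 59.09 on day 15. All 9 cultured libraries were above all at day 0. The log2 fold change was 2.50 ± 0.28 (SE), 2.45 ± 0.28 and 3.34 ± 0.28 on the 3 days (limma adjusted p = 0.00184, 0.00286 and 0.00041), and every alternative kept the calls. Its region, marked Up on the negative strand, lay 1885 bases before the gene.

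F511_00253 (KQ997936.1:983716-986554), an alanine--glyoxylate aminotransferase 23-like gene of amino acid turnover in mitochondria, had 18.21, 16.44 and 9.33 FPKM at day 0 and 36.01 to 70.84 in the cultured libraries. The groups did not overlap on any day, with log2 fold changes of 1.75 ± 0.26 (SE), 1.99 ± 0.26 and 1.65 ± 0.26 (limma adjusted p = 0.00449, 0.00359 and 0.0038). The day 10 call was lost in the fit of only the 6 libraries compared. The region 1733 bases before it, on the negative strand, was marked Up.

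Cell wall and phenylpropanoid genes appeared on both sides. F511_00715 (KV005017.1:828684-831926), extensin-2-like, a structural glycoprotein of the wall, had 45.63, 31.7 and 80.23 FPKM at day 0, 159.19, 176.72 and 230.81 at day 5, 137.37, 263.55 and 316.31 at day 10, and 234.35, 228.47 and 672.49 at day 15. Every cultured library exceeded every library of day 0, and replicate 3 was the highest of each day. The log2 fold change was 1.91 ± 0.47 (SE), 2.18 ± 0.47 and 2.73 ± 0.47 (limma adjusted p = 0.0263, 0.023 and 0.0059). The calls at days 5 and 10 were lost without day 0 replicate 1 or 2, among others, and that at day 15 held throughout. Its region, 353 bases before the gene on the negative strand, was marked Down.

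The glycine-rich cell wall structural protein 1-like gene F511_00395 had 0.43, 1.25 and 0 FPKM at day 0, against 16.62, 20.39 and 27.93 at day 15. Days 5 and 10 had 1.36 to 19.69 FPKM, above day 0 and overlapping day 15. Only day 15 was called, with a log2 fold change of 3.91 ± 0.73 (SE; limma adjusted p = 0.00789). The region 713 bases before it, on the positive strand, was marked Up.

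Cytochrome P450 98A3 (F511_02465, KV010635.1:279180-282516), which in Arabidopsis hydroxylates lignin precursors, had 93.6, 62.33 and 88.34 FPKM at day 0, against 173.07, 204.84 and 232.76 at day 15. These groups did not overlap, and the log2 fold change was 1.32 ± 0.26 (SE; limma adjusted p = 0.00956). At days 5 and 10 it was 0.91 and 0.87, which was under the fold minimum. The marks differed by strand before this gene, Up on the positive strand at 1359 bases and Down on the negative strand at 1619 bases.

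By contrast, F511_02506 (KV010635.1:562341-564784), 4-coumarate--CoA ligase 2-like, an earlier enzyme of the same pathway, had 42.83, 32.23 and 44.84 FPKM at day 0 and 9.45 to 18.89 in the 9 cultured libraries. It fell by 1.45, 1.35 and 1.48 on the log2 scale (SE 0.29; limma adjusted p = 0.0133, 0.0232 and 0.00948), and the groups did not overlap. The day 15 call held throughout, while those at days 5 and 10 were lost without day 0 replicate 1, among others. Its 4 regions, 2 on each strand, were all marked Up and lay 987 to 1760 bases before it.

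Both zeatin O-glucosyltransferase-like genes described here were called lower at days 10 and 15. F511_02433 (KV010635.1:43678-45072) had 95.64, 95.46 and 101.13 FPKM at day 0, 31.41, 27.25 and 24.51 at day 5, 21.94, 34.91 and 25.74 at day 10, and 31.33, 38.13 and 36.86 at day 15. Every cultured library lay below day 0, with log2 fold changes of -1.78 ± 0.17 (SE), -1.81 ± 0.17 and -1.44 ± 0.17 (limma adjusted p = 0.000959, 0.0015 and 0.00137), kept in every alternative. Its neighbour F511_02432 had 54.39, 50.64 and 40.3 FPKM at day 0, against 45.24, 35.55 and 22.09 at day 5, where the groups overlapped and no call was made. At days 10 and 15 its libraries had 16.22 to 28.56 FPKM, and it fell by 1.31 and 1.06 on the log2 scale (SE 0.26; limma adjusted p = 0.0166 and 0.0195). Both calls were lost without day 0 replicate 1 or 2, among others. As neighbouring genes of 1 family they may share reads, so the split between them is uncertain. Each has 1 region, marked Up on the positive strand, at 1722 bases from F511_02433 and 686 bases from F511_02432. Enzymes of this family store cytokinin as a glucoside.

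Chloroplast genes with an upstream region were mostly lower where called. Of 9 tested members of a list of photosynthesis and chloroplast proteins, 0 were called higher and 2 lower at days 5 and 10, and 1 higher and 3 lower at day 15. Over the whole list of 1010 genes the counts were 10 and 98, 6 and 82, and 13 and 223. The leaf marker sum fell over the same days, as given above.

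F511_01558 (KV018098.1:458416-467182) encodes 4-hydroxy-3-methylbut-2-enyl diphosphate reductase, the last enzyme of the plastid pathway to isoprenoid precursors. It had 218.13, 174.56 and 325.1 FPKM at day 0 and 39.97 to 76.63 in the 9 cultured libraries, with no overlap. It fell by 2.28, 1.99 and 1.91 on the log2 scale (SE 0.26; limma adjusted p = 0.00184, 0.00377 and 0.00225), and the calls at days 5 and 15 held throughout. Its regions, 1 on each strand, were marked Up and overlapped a CHG region, and the 498 bases of the negative strand region made it the longest of all upstream regions.

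Nudix hydrolase 20 (F511_00872), a chloroplast-targeted pyrophosphatase family member, had 70.32, 54.37 and 79.7 FPKM at day 0 and 23.71 to 43.92 later. It fell by 1.20, 1.10 and 1.36 on the log2 scale (SE 0.23; limma adjusted p = 0.0114, 0.0207 and 0.00544), with the day 15 call held throughout. The call at day 5 was lost without day 5 replicate 2 and with replicates 1 and 2 only, and that at day 10 in 6 alternatives, among them without day 0 replicate 1 or 3. The chloroplast peptidyl-prolyl isomerase F511_03170, a protein folding enzyme, had 191.78, 150.76 and 184.6 FPKM at day 0, against 98.14, 58.35 and 52.77 at day 15, where it fell by 1.37 (SE 0.25; limma adjusted p = 0.00773), a call lost with replicates 1 and 2 only. The exception in the other direction was the chloroplast metallopeptidase EGY3 (F511_00173), with 24.48, 16.32 and 27.1 FPKM at day 0, against 43.93, 61.27 and 48.04 at day 15. That gene has 2 overlapping regions marked Up and another, farther out on the negative strand, marked Down. Its call, at a log2 fold change of 1.16 ± 0.28 (SE; limma adjusted p = 0.0192), was lost without day 0 replicate 1 or 2, without day 15 replicate 2 and after rescaling.

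**Figure D4:**
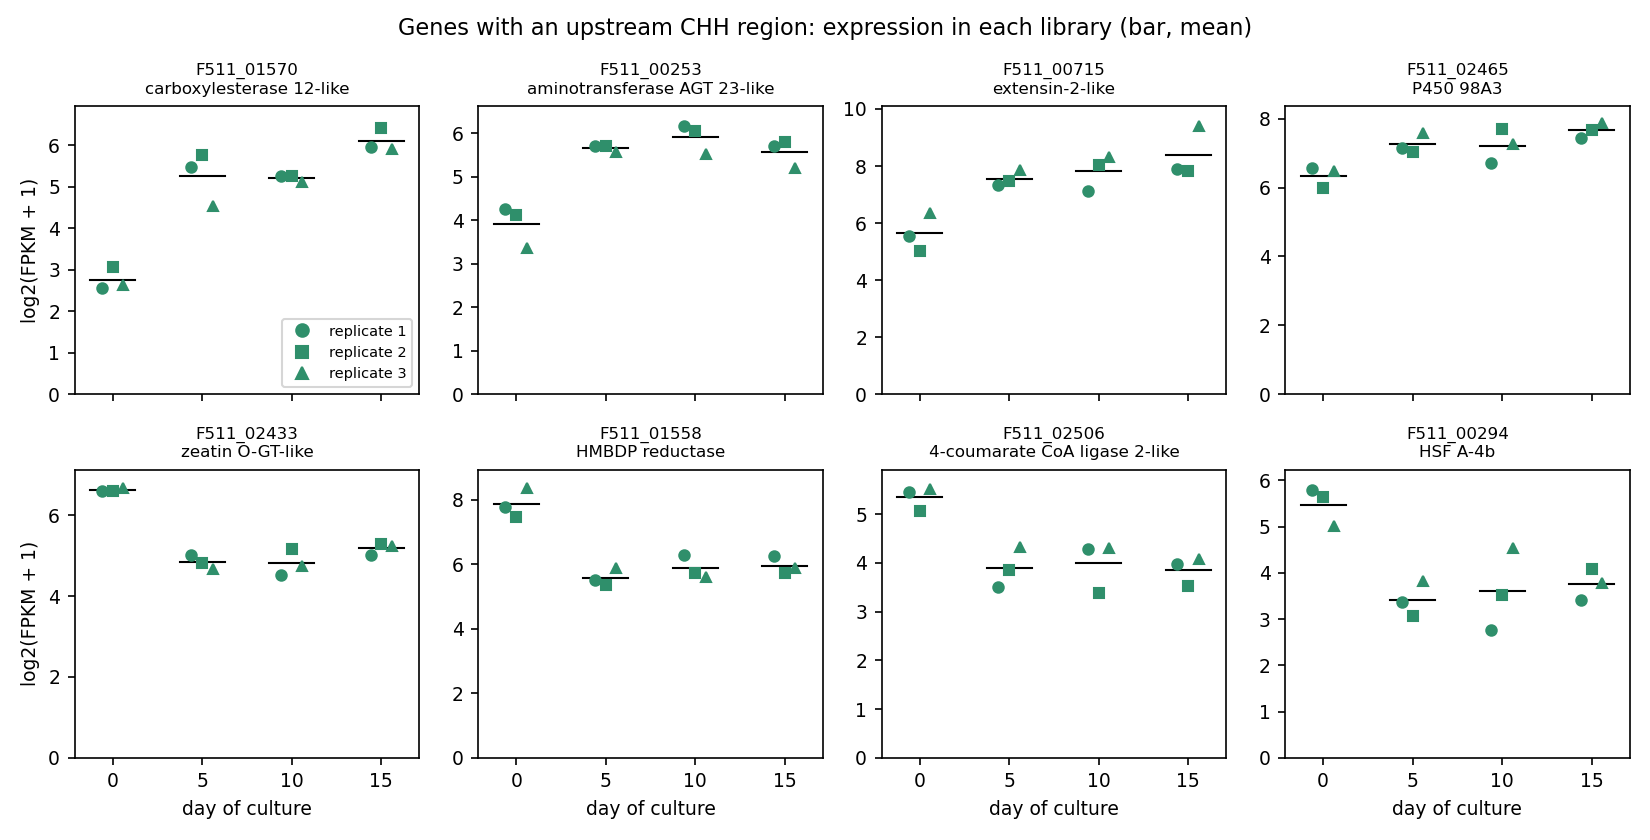
Expression as log2(FPKM + 1) of 8 genes with an upstream CHH region in each of the 12 RNA libraries by day of culture; symbols are replicates, bars the mean of 3, and each vertical axis starts at 0 with its own upper limit. The upper 4 genes lie above their day 0 libraries at day 15 and the lower 4 below, with no overlap at that day, which was part of how genes were chosen.

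In the list of transcription factors, few linked members were called, too few to set their counts or direction apart from those of the whole list. Of 14 tested, 0 were called higher and 2 lower on each day, against 61, 47 and 80 higher and 51, 32 and 35 lower among 869 in the list. The text pattern of the list also caught F511_15782, an integrase with a zinc finger of transposon origin, which is 1 of the 14. Heat stress transcription factor A-4b (F511_00294) had 54.06, 48.63 and 31.48 FPKM at day 0 and 5.8 to 22.09 in the cultured libraries, which did not overlap. It fell by 2.06, 1.88 and 1.72 on the log2 scale (SE 0.40; limma adjusted p = 0.0122, 0.0229 and 0.0171), and each call was lost without day 0 replicate 1. The region before it, on the positive strand and marked Up, also lies before F511_00293, a trichome birefringence-like 43 gene of a family that acetylates wall polymers. That gene, named because it shares the region, had 3.74, 1.55 and 3.84 FPKM at day 0, against 0.48, 0.99 and 0.69 at day 15, a call of -1.19 ± 0.37 (SE; limma adjusted p = 0.0491) lost in 14 of 18 alternatives, such as without day 0 replicate 1.

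Ethylene-responsive factor 1 (F511_00059), a regulator of ethylene responses, had 7.06, 24.35 and 9.24 FPKM at day 0, against 0, 0.74 and 2.37 at day 15. It fell by 2.83 on the log2 scale (SE 0.56; limma adjusted p = 0.00959) at day 15, which held throughout, and by 2.14 at day 10 (limma adjusted p = 0.043), which was lost in 12 alternatives, among them without day 0 replicate 1 or 2. Its region on the negative strand was marked Down and overlapped a CG region. The Myb4-like gene F511_07141, of a family that represses phenylpropanoid genes in Arabidopsis, started from 133.76, 138.11 and 5.56 FPKM at day 0 and had 1.29 to 4 FPKM on day 5. Replicate 3 of day 0 was thus far below the other two. It was called at day 5 with -3.89 ± 1.12 (SE; limma adjusted p = 0.0453), and the call was lost in 11 of 18 alternatives, among them without day 0 replicate 1 (-3.17) or 2 (-3.15).

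Of 13 tested members of the list of receptor and protein kinases, 1 was called lower on each day and 1 higher at day 15, against 33, 21 and 45 higher and 44, 24 and 44 lower among 911 in the list. The text pattern of that list also catches metabolic kinases, and the member called higher was choline kinase 2, described below. Of 4 tested transport genes 1 was called, higher at day 15, against 43 higher and 13 lower among 541. The calmodulin-like calcium-binding gene CML18 (F511_00155) had 2.45, 0 and 8.7 FPKM at day 0, 25.32, 21.29 and 20.09 at day 10, and 44.85, 141.86 and 42.69 at day 15. The log2 fold change was 2.84 ± 0.76 (SE; limma adjusted p = 0.045) at day 10 and 4.35 ± 0.76 (limma adjusted p = 0.00626) at day 15. The day 10 call was lost in 12 alternatives, among them without day 0 replicate 1 or 2, and the day 15 call held throughout.

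The F-box protein gene At2g02240-like (F511_00761), of the substrate-binding part of ubiquitin ligases, had 0.59, 2.43 and 1.66 FPKM at day 0 and 7.71 to 18.99 later. It rose by 2.55 ± 0.35 (SE), 1.93 ± 0.35 and 2.51 ± 0.35 on the log2 scale (limma adjusted p = 0.00363, 0.0126 and 0.00251). Its call at day 10 did not hold when either replicate 1 of day 0 or replicate 2 of day 10 was dropped, or with only the 6 libraries compared. The U-box gene F511_07080, with the run of 5 regions, had 0, 0 and 0.15 FPKM at day 0, against 2.16, 11.28 and 2.79 at day 15. Its call at day 15, 2.33 ± 0.47 (SE; limma adjusted p = 0.0101), held throughout, and days 5 and 10 stayed at 0 to 0.7 FPKM.

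The high-affinity nitrate transporter 3.1-like gene F511_00660, whose Arabidopsis counterpart is a partner protein of nitrate transporters, had 1.56, 2.46 and 1.29 FPKM at day 0, against 18.49, 20.5 and 10.58 at day 15. It rose by 2.63 ± 0.49 on the log2 scale (SE; limma adjusted p = 0.00781), a call held throughout. Its region on the negative strand, 347 bases before the gene, was marked Down. A tubulin beta chain gene (F511_01131), a component of microtubules, had 26.64, 26.79 and 43.62 FPKM at day 0, against 65.28, 64.64 and 68.64 at day 15, at a log2 fold change of 1.05 ± 0.19 (SE; limma adjusted p = 0.00758) that fell under the fold minimum without day 0 replicate 1 (0.93) or 2 (0.94) and after rescaling (0.84).

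Smaller sets of calls concerned other functions. The NDR1-like gene F511_00798, related to an Arabidopsis disease resistance protein, was called only at day 5, where it had 68.12, 78.84 and 40.06 FPKM against 32.69, 24.28 and 17.21 at day 0 (1.29 ± 0.28, SE; limma adjusted p = 0.0164), a call lost in 5 alternatives, among them without day 0 replicate 2. Choline kinase 2 (F511_01140), which makes a precursor of membrane lipids, rose at day 15 to 17.56, 20.73 and 29.61 FPKM from 8.86, 8.07 and 7.46 (1.34 ± 0.31, SE; limma adjusted p = 0.0169), which did not hold when replicate 1 or 2 of day 0 or replicate 3 of day 15 was dropped. The leucine-rich repeat receptor kinase F511_00823 had 4.42, 3.37 and 3.41 FPKM at day 0 and 0.49 to 1.7 later, and was called lower on all 3 days, by -1.37, -1.25 and -1.33 (SE 0.32; limma adjusted p = 0.0224, 0.0398 and 0.0193), each lost without day 0 replicate 1.

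The actin-related protein 2/3 complex subunit 2A-like gene F511_00199, part of the machinery that nucleates actin filaments, had 177.66, 152.18 and 159.75 FPKM at day 0 and 47.8 to 93.83 later. It fell by 1.09, 1.20 and 1.30 on the log2 scale (SE 0.28; limma adjusted p = 0.0302, 0.0291 and 0.0125), each lost without day 0 replicate 1. The REF/SRPP-like gene F511_00221, related to lipid droplet proteins, had 600.02, 539.92 and 278.98 FPKM at day 0 and 123.2 to 262.76 later. It fell by 1.43, 1.36 and 1.03 on the log2 scale (SE 0.31; limma adjusted p = 0.0162, 0.0263 and 0.0416), each lost without day 0 replicate 1 or 2. The mitochondrial chaperone BCS1-B (F511_02440), of respiratory complex assembly, was called lower at days 5 and 10 (-1.12 and -1.17, SE 0.32; limma adjusted p = 0.0439 and 0.0487), each lost in 15 of 18 alternatives, among them without day 0 replicate 1, 2 or 3.

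The Ty3-G Gag-Pol gene F511_00177, of retrotransposon origin, was the called gene of 3 linked members tested in a list of transposon-derived proteins. Among 59 tested in the whole list, 0 were called higher and 1 lower at day 15, so this gene was the only call. It had 84.97, 82.48 and 91.77 FPKM at day 0, against 44.65, 30.25 and 27.41 at day 15, and fell by 1.35 on the log2 scale (SE 0.31; limma adjusted p = 0.0154). That call did not hold when replicate 1 of day 0 or replicate 2 or 3 of day 15 was dropped. Its negative strand region was marked Down. The 3 called genes without a named protein, given after their values were seen, were F511_00060 and F511_02499, called lower, and F511_01580, called higher at day 15. F511_02499, whose positive strand region reached over the edge of the gene, had 2.76, 5.34 and 9.77 FPKM at day 0 and 0 to 1.38 in the cultured libraries. Its log2 fold changes were -2.32, -1.99 and -2.31 (SE 0.45; limma adjusted p = 0.0122, 0.027 and 0.0093), with the day 10 call lost in 7 alternatives, among them without day 0 replicate 2 or 3.

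The genes with the longest runs were mostly not called, as were most of all genes tested. F511_00834 started from 13.65, 8.23 and 10.43 FPKM at day 0. Its values were 3.44, 0.8 and 10.85 FPKM on day 5, 1.68, 10.13 and 16.09 on day 10, and 5.48, 7.28 and 22.78 on day 15, so that the days overlapped and replicate 3 was the highest of each cultured day. F511_00673 had 81.86 to 99.43 FPKM at day 0 and 51.08 to 96.81 later, with a log2 fold change of -0.61 ± 0.21 (SE; limma adjusted p = 0.0701) at day 15. Of 36 tested genes with at least 3 regions, 0 were called higher and 2 lower (5.56%) at days 5 and 10. Of all genes, 3.13% and 2.24% were called higher and 3.48% and 2.26% lower on these days. At day 15, 3 were called higher (8.33%, against 4.63% of all genes) and 1 lower (2.78%, against 4.38%).

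Of 70 genes matched by a list for CHH and RNA-directed DNA methylation 2 were linked to an upstream region, as were 257 of the 24110 genes in the table. Only the 1346 genes of the table on the 18 scaffolds with regions could be linked. How many genes of the list lie there was not computed, so these shares cannot be compared. Of the list 55 genes were tested, and it also catches methyltransferases of ribosomal and transfer RNA. Linked members were a SUVH1-like gene (F511_02493), of a family of histone methyltransferases and readers of DNA methylation, and a dicer-like protein 4-like gene (F511_00889), of a family that cuts small RNAs. Each has 1 region on the negative strand, marked Up, at 1023 and 1180 bases. F511_02493 had 10.41 to 15.65 FPKM and F511_00889 had 0.34 to 3.51 FPKM over the 12 libraries, and neither was called. Over the list 1, 1 and 2 genes were called higher and 0 lower on the 3 days. The gene called on all 3 days was a putative RNA-dependent RNA polymerase 3 (F511_36395), of a family that makes double-stranded RNA, which had 4.16 ± 1.34 FPKM (SD, n = 3) at day 0 and 13.62 ± 0.93 at day 5. Its log2 fold changes were 1.53, 1.16 and 1.13 (SE 0.25; limma adjusted p = 0.00618, 0.0232 and 0.0141). ARGONAUTE 7 (F511_37702) was called at day 15, with 4.24 ± 1.71 FPKM (SD, n = 3) at day 0 and 11.69 ± 1.14 at day 15 (1.32 ± 0.27, SE; limma adjusted p = 0.0101). CMT2 (F511_27524) was at 10.93 ± 0.97 FPKM (SD, n = 3) at day 0 and 8.63 ± 1.76 at day 15, and an Argonaute 4-like gene (F511_35935) at 53.5 ± 8.58 and 76.8 ± 22.5, neither called. None of 6 tested genes in the list for DNA demethylation was called or linked, and how many of them lie on the 18 scaffolds was not computed. Its text pattern also caught glycosylases for other bases, a uracil-DNA glycosylase (F511_24509) and an A/G-specific adenine DNA glycosylase-like gene (F511_27391).

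The remaining lists had few linked members, too few to set their counts apart from those of the whole list. The auxin and cytokinin list had 3 linked members, an IAA9-like repressor and the phototropin-2 genes F511_00181 and F511_00182, which its text pattern caught. Of these 0 were called, with 8 higher and 9 lower at day 5 among 135 in the list. The pattern missed the linked zeatin O-glucosyltransferase-like genes F511_02432 and F511_02433, which were called lower as described above. Of the list for cell cycle and division 4 linked genes were tested and 0 called, with 4 higher and 3 lower at day 5 among 193 in the list. The other hormone list had 5 tested and gave ERF1 alone, lower at days 10 and 15, with 12 higher and 13 lower at day 10 and 16 and 14 at day 15 among 170. Of the histone list 2 members were tested and 0 called, with 2 higher and 0 lower at day 5 among 119.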

How the data were processed

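Members and gene lists were chosen with earlier results of these data known. The deposited tables of differentially methylated regions give each region's count of sites, its direction as a word and the authors' p-value, per the file headers. Levels, as a fraction from 0 to 1, were used only from the deposited CG table, whose columns name the samples, and 6 level columns of the CHG and CHH tables, which match no sample, were not used. Coverage, the region caller and its thresholds are not given in the sources used here. The table of the positive strand heads its site number as CG, taken here as CHH sites. Expression is the authors' FPKM, per the file headers. Tools listed in the submitters' processing notes are BSMAP, Bowtie2 2.2.5, StringTie 1.0.4 and HISAT, and the genome build is not given in the sources used here. Coordinates are those of the deposited tables, 1-based, and no sequence was read.

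Regions were selected, counted and intersected within a scaffold (at least 1 base). Distances run to the nearest edge of the gene in the expression table, and clusters join regions at most 500 bases apart. Of 24110 genes, 17288 with at least 1 FPKM in at least 3 of 12 libraries were fitted as log2(FPKM + 1), 1 mean per day, in limma 3.58.1 (R 4.3.3, eBayes with trend and robust variances, statmod 1.5.0), two-sided, with Benjamini-Hochberg adjustment over all of them. Same-numbered libraries of days 5 and 10 and of days 10 and 15 all correlated over 0.1, while those of day 0 and later days did not all. Day 5 replicate 2 with day 10 replicate 1 (0.37) and day 5 replicate 1 with day 10 replicate 2 (0.29) correlated as well. The same-numbered values were 0.28 for replicate 1 and 0.18 for replicate 2, so these numbers were not shown to pair days 5 and 10. Both steps were checked on made-up data with known answers.

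Regions were to be named by their difference in level. Without levels, they were named, after seeing the data, by the 3 smallest authors' p-values at a named protein for each strand and direction. Named genes were up to 8 called higher and 8 called lower with the largest fold changes, non-overlapping libraries and at least 5 FPKM in the higher group, with members of the gene lists and genes with regions on both strands; the text names a part of them. Other called genes are named after their values were seen. Alternatives were pseudocount 0.1, no filter, rescaling by median ratios, a replicate block, only the 6 libraries compared, each library left out, no fold minimum, and, chosen after seeing the data, replicates 1 and 2 only and a split of scaffolds at 50 genes.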

Additional observations from a re-analysis of the deposited data

How the results depend on the processing

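Among regions with an authors' p-value under 0.001 there were 184 on the positive and 176 on the negative strand. On scaffolds with over 50 genes, 91.7% of positive strand regions were marked Up. On the others there were 73 positive strand regions (76.7%) and 51 negative strand regions (78.4%). Within 500 bases, 234 regions had a neighbour on the other strand. Not run were a minimum difference between levels and medians weighted by sites, since they need level columns that match no sample.

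Linked genes called numbered 16, 17 and 28 at days 5, 10 and 15 (7.58%, 8.06% and 13.3%, against 6.61%, 4.49% and 9.02% of all genes). Fitting only the 6 libraries compared gave 2 at day 10 (0.95%, against 0.51% of all genes). Dropping the fold minimum gave 33 at day 5 (15.6%, against 12.4%) and 52 at day 15 (24.6%, against 16.8%). Replicates 1 and 2 only gave 25 at day 5 (11.85%, against 11.76%). Leaving out 1 library gave 5 to 19 at day 5 (8 without day 0 replicate 1, 10 without day 0 replicate 2, 8 without day 5 replicate 1, 5 without day 5 replicate 2), 5 to 18 at day 10 (5 and 7 without day 0 replicates 1 and 2, 6 and 10 without day 10 replicates 2 and 3) and 17 to 31 at day 15 (17 without day 0 replicate 1). Of 732 values of single calls with 1 library left out, 157 lost the call and 0 reversed, and of 366 under other settings 53 and 0. Rescaling shifted the median of all genes by 0.15, 0.15 and 0.19 (log2).

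With the replicate number as a block the counts were 18, 18 and 32 (8.53%, 8.53% and 15.2% of linked against 8.68%, 6.46% and 11.1% of all genes) and no call was lost. Same-numbered libraries correlated at -0.01, 0.04 and 0.09 at the lowest between day 0 and days 5, 10 and 15, so no pairing was taken for those comparisons, although 10 of 12 libraries were closest to their own number, a hint from the data. Between days 5 and 10 (0.18 to 0.66) and days 10 and 15 (0.23 to 0.50) every same-numbered pair was over 0.1, and the block gave 0 calls there too. Replicates 1 and 2 of days 5 and 10 also correlated across numbers, at 0.37 and 0.29, so a pairing by number was not shown for them.

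Limits are 1 bisulfite library per leaf age, undefined column names, unknown coverage and depth, 18 scaffolds, and 3 libraries a day.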
